A study of Mus musculus with 69 samples.

Results

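The genes of the interleukin-6 (IL-6) family and of the feedback on the transcription factor STAT3 were followed in the lungs of mice given titanium dioxide nanoparticles. The 10 genes were listed by name as the ligands Il6, Osm, Lif and Il11, the receptor chains Il6ra, Osmr and Il6st, the factor Stat3, its inhibitor Socs3 and the IL-4 receptor chain Il4ra. Probes were assigned through the RefSeq accession in the scanner files, and 9 of the 10 genes were measured, by 12 probes, among 18656 genes tested. Lif had no matching probe and was not analysed here. Female C57BL/6 mice, 5 to 7 weeks old on arrival and acclimatised for 1 to 3 weeks, were instilled once into the trachea with 1 of the materials, NRCWE-025 or NRCWE-030, the dose being 18, 54 or 162 µg. Controls received the vehicle of 2% serum in water, which every group therefore shared. Whole lungs were taken 24 h (day 1) or 28 days after instillation, and RNA from a frozen piece of each lung was labelled with Cy5 and hybridised against Cy3-labelled Universal Mouse Reference RNA, with no dye swap. The 69 arrays fall into 14 groups of 5 mice, except NRCWE-025 at 162 µg on day 28 with 4, and the 5 controls of a day serve both materials. Each level below is the log2 ratio of lung to reference RNA for 1 gene, so that levels of different genes cannot be set against each other.

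IL-6 family cytokines bind a receptor chain of their own and then signal through the shared chain gp130, the product of Il6st. The JAK kinases bound to gp130 phosphorylate STAT3, which enters the nucleus and switches on Socs3, whose protein binds the receptor and JAK and dampens the same signal. In lung, IL-6 is made by macrophages, epithelium and fibroblasts after injury, and the acute phase genes are among the textbook targets of the pathway. In whole lung, more cells of a type and more RNA per cell cannot be told apart.

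Between 49.1% and 72.8% of spots were well above background in Cy5, with a median of 62.1%, and the number of arrays limits the precision of each value. A total of 19 slides and 11 scan days carried the arrays. The markers of lung cells were well above background on all arrays, namely 6 of 6 measured for alveolar type 2, 4 of 4 for alveolar type 1, 3 of 3 for airway secretory and 4 of 4 for endothelial cells. The heart muscle markers, all 6 measured, varied widely between lungs, with a mean log2 ratio per array from 1.01 to 5.10 in the day 1 controls alone. A fit treated a gene as called when its adjusted p (limma, Benjamini-Hochberg over all 18656 genes) was under 0.05.

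The promoters of Socs3 and Il6 are shown because these genes moved furthest among the members and because STAT3 is known to act on Socs3. Of the 10 listed genes, 9 had a promoter entry in RefSeq (GRCm38.p6), Osm being the exception. The 250 bases before each start site were searched for the palindromic spacings TTCNNNGAA and the same letters with 4 free bases between, which read the same on both strands. The former stands in 7.02% and the latter in 5.85% of 32851 promoter windows of that length. Socs3 was the only member of the 9 with a match, 1 copy of the former, TTCTTAGAA, from base 154 to base 146 before the start site, shown in capitals. The Il6 window held neither spacing in these 250 bases and is printed in lower case for comparison.
Socs3, chr11:117969367-117969616, minus strand: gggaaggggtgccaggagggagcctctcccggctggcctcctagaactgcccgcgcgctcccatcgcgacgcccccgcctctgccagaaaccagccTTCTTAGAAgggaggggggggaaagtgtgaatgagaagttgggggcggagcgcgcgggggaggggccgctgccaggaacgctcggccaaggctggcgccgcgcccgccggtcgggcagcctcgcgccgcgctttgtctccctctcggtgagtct
Il6, chr5:30012864-30013113, plus strand: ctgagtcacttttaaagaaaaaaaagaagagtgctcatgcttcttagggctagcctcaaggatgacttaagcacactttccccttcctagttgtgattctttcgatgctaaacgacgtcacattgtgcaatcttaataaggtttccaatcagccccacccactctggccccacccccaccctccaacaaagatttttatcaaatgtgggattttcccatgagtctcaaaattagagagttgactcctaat

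Il6, the founding cytokine of the family, rose on day 1 after 162 µg NRCWE-030 and was the only member called in any comparison. Its levels in the day 1 controls were -1.06, -1.61, -1.43, -1.84 and -1.48. After 162 µg NRCWE-030 they were 0.97, -0.35, -0.42, -1.00 and -0.57, so that all 5 treated lungs lay above all 5 controls, the lowest by a narrow margin. The difference was 1.21 on the log2 scale (SE 0.29, 95% interval 0.60 to 1.81), with limma's adjusted p of 0.0371. Only 1 of the 5 controls was well above background, so that the control level under this difference is mostly dim. In that comparison 316 of the 18656 genes were called (1.69%), of which 228 were higher (1.22%) and 88 lower (0.472%), and 1 of the 9 measured members.

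After 162 µg NRCWE-025 the Il6 levels on day 1 were -1.00, -1.05, -0.72, 0.96 and -0.25. All 5 were again above the controls, the lowest at -1.05 against -1.06, with a difference of 1.07 (SE 0.32, 95% interval 0.40 to 1.74), but the adjusted p by limma was 0.151. Over the alternatives this difference ranged from 0.56 with slide as a fixed block to 3.38 with the scanner log ratio. The background there was 39 genes called (0.209%) and no member. Within both groups of 162 µg a single lung stood far above the rest, at 0.97 for NRCWE-030 and at 0.96 for NRCWE-025.

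At the lower doses the Il6 levels overlapped those of the controls. After 54 µg NRCWE-025 they were -0.96, -0.88, -0.11, -1.65 and -0.83, a mean difference of 0.60, and after 18 µg they were -1.04, -1.24, -1.06, -2.06 and -1.32, a mean difference of 0.14. After 54 µg NRCWE-030 they were -1.06, -1.38, -0.97, -1.07 and -0.57, a mean difference of 0.47, and after 18 µg they were -0.59, -1.93, -0.83, -1.19 and -0.83, a mean difference of 0.41. The order of the means followed the dose for both materials, while neighbouring doses differed by less than the larger SD. The F-test over the 3 doses gave limma adjusted p = 0.146 for NRCWE-030, where 178 genes were called (0.954%), and 0.340 for NRCWE-025, where 4 were called (0.0214%). At 18 and 54 µg on day 1 no gene was called for NRCWE-025 (0 and 0 genes, or 0%, although 5.12% and 6.53% passed limma at an unadjusted p under 0.05), and 1 (0.00536%) and 15 (0.0804%) for NRCWE-030, none of them a member.

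**Figure D1:**
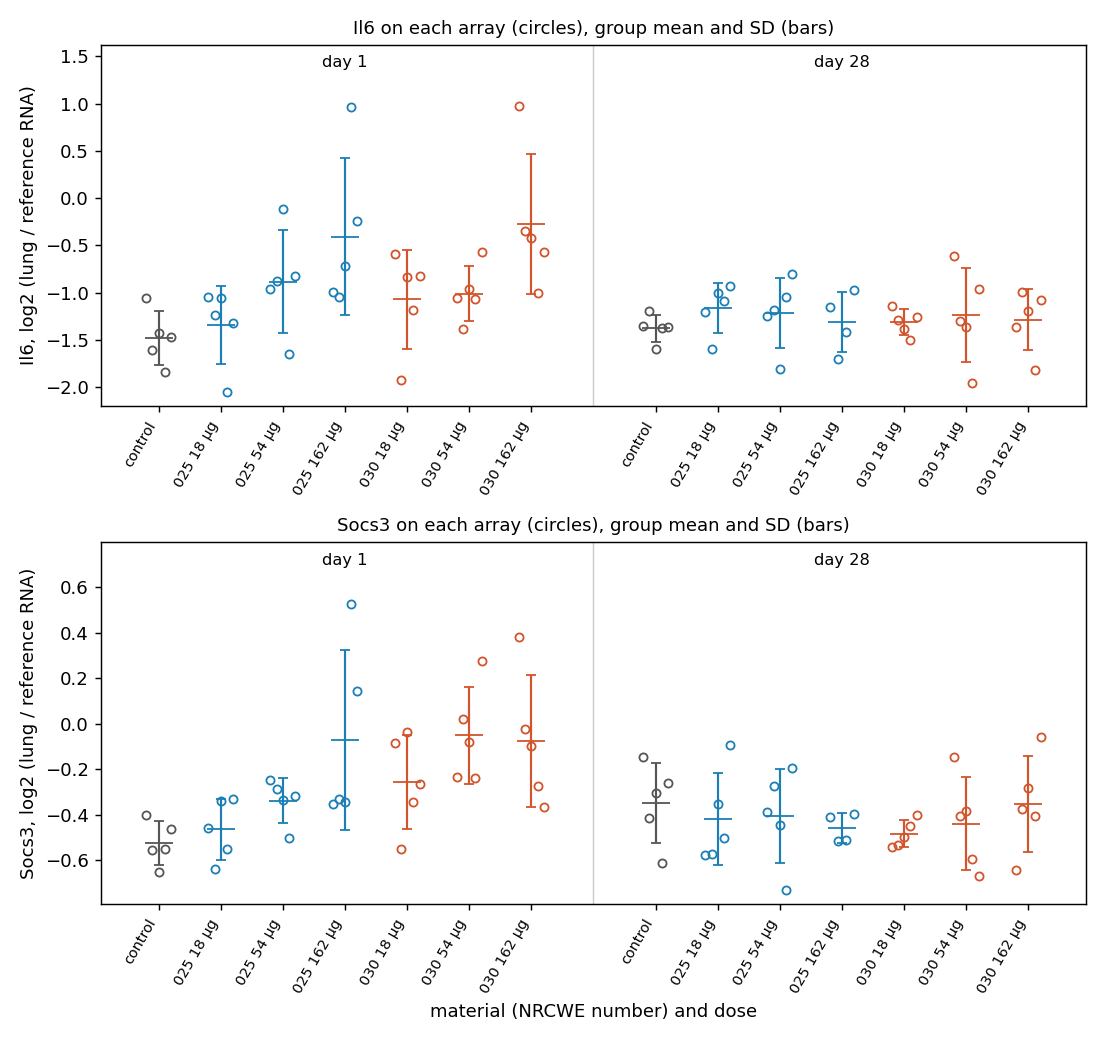
Log2 ratio of lung to reference RNA of Il6 (top) and Socs3 (bottom) on each of the 69 arrays (circles), by material, dose and day, with the group mean and SD (bars). Among the day 1 groups the lungs of 162 µg all lie above the controls for both genes, while on day 28 treated and control lungs overlap.

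The Il6 probe was dim. It was well above background on 50 of the 69 arrays, namely on 1 of the 5 day 1 controls, on 5 of 5 lungs of each 162 µg group of day 1 and on 5 of 5 day 28 controls. The day 28 controls nevertheless had a mean level of -1.38 ± 0.14 (SD, n = 5), close to the -1.48 ± 0.28 (SD, n = 5) of the day 1 controls. The call of Il6 after NRCWE-030 was lost with slide as a fixed block (difference 1.60, adjusted p = 0.113 by limma). It was also lost with scan day as a fixed block (1.44, adjusted p = 0.213 by limma). The backgrounds as deposited, no background correction, the series matrix values and the ordinary test lost the call as well. In all, 6 of 13 alternatives lost it, while slide as a random block kept it. Leaving out any of 8 of the 20 arrays also lost the call. All 8 were day 1 controls or lungs of 162 µg NRCWE-030, the groups that enter the difference. In those groups the call stayed only without control replicate 1 or treated replicate 4. Leaving out a lung of a lower dose left the difference at 1.21 and kept the call. The scanner software's own ratio gave a larger difference of 3.98, and leaving out the highest lung, replicate 1, gave 0.90.

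For Il6, the differences at 162 µg on day 1 were also taken within scan days and slides. As all 5 lungs of each group lay above all 5 controls, each such difference had to be positive, and only its size is informative. For NRCWE-030 the Il6 difference was 2.81 on scan day 5 (1 treated and 1 control lung) and 0.76 on scan day 10 (2 treated and 1 control). For NRCWE-025 it was 0.06, 0.38 and 2.44 on scan days 1, 4 and 10, each with 1 lung of either kind. Within slides, where 1 treated lung met 1 control, the Il6 differences were 2.81 on slide 14 and 1.05 on slide 1 for NRCWE-030. For NRCWE-025 the slides gave 0.06 on slide 8 and 0.38 on slide 4. Slides 14, 8 and 4 held the same pairs of lungs as scan days 5, 1 and 4. The control of scan day 10 served both materials.

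Osm, the ligand oncostatin M made by neutrophils and macrophages, was measured by 2 probes of unequal quality. Probe A_51_P291361 was well above background on 51 of 69 arrays, and probe A_52_P348614 on 1 of 69, so that the latter gives no more than a bound in 13 of the 14 groups. The gene value is the median of both. After 162 µg NRCWE-030 on day 1 the first probe averaged 0.26 ± 0.31 (SD, n = 5) against -0.16 ± 0.11 in the controls, a difference of 0.42 with limma's adjusted p of 0.109 in a fit over probes. The second probe was well above background on 1 of these 5 lungs and on none of the 5 controls, so that no difference is given for it. The gene, which rests partly on that dim probe, differed by 0.28 (SE 0.10, adjusted p = 0.193 by limma). Over the alternatives with both probes this ranged from 0.22 with scan day as a fixed block to 1.36 with the scanner log ratio, and it was 0.18 without replicate 2 of 162 µg NRCWE-030. After 162 µg NRCWE-025 the first probe spread from -0.66 to 0.89 and the gene differed by 0.13 (adjusted p = 0.715 by limma).

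**Figure D2:**
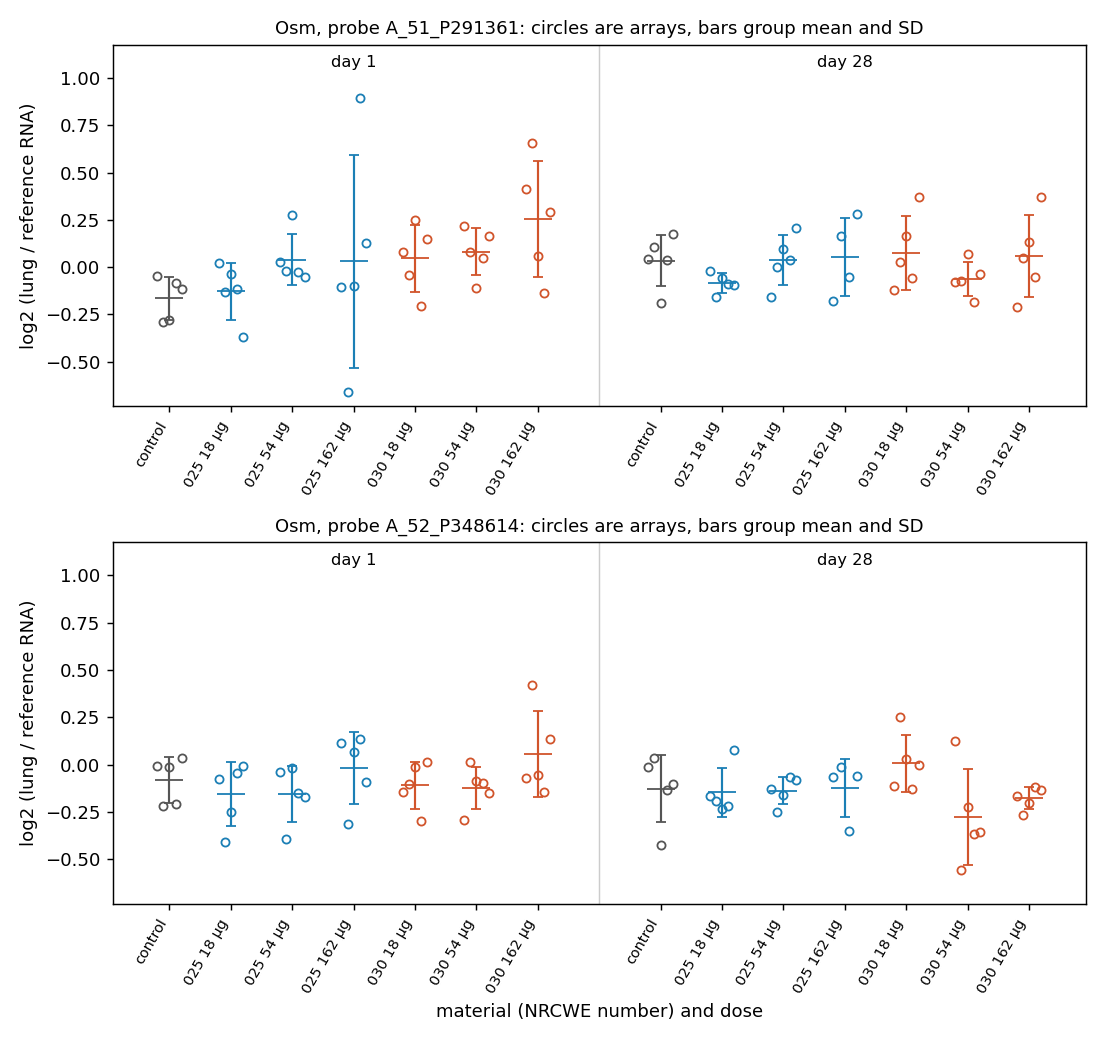
Log2 ratio of lung to reference RNA of the 2 Osm probes on each array (circles), by material, dose and day, with the group mean and SD (bars). Probe A_51_P291361 (top) averages 0.26 after 162 µg NRCWE-030 on day 1 against -0.16 in the controls, while probe A_52_P348614 (bottom), was well above background on 1 of 69 arrays.

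Il11, a ligand known for its part in fibroblasts and repair, was well above background on every array and was not called. Its differences from the controls lay between -0.18 and 0.12 on day 1 and between -0.07 and 0.27 on day 28, with limma's lowest adjusted p at 0.803 and 0.695. The 95% limits of its day 1 contrasts lay between -0.52 and 0.48.

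Osmr, the oncostatin M receptor chain, had the largest single difference among the receptors, and none was called. After 162 µg NRCWE-030 on day 1 its levels were 0.37, 0.15, -0.28, -0.38 and -0.17 against -0.05, -0.63, -0.58, -0.29 and -0.65 in the controls, a difference of 0.38 (SE 0.14, adjusted p = 0.215 by limma) with overlapping groups. After 54 µg it was 0.31 and after 162 µg NRCWE-025 0.27 (adjusted p = 0.441 by limma). Its 2 probes differed by 0.45 and 0.30 after 162 µg NRCWE-030, with no call in the fit over probes.

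Il6ra, the chain that binds IL-6, was not called, and neither was Il6st, the shared gp130 chain. Il6ra differed from the controls by -0.21 to -0.04 on day 1 and by -0.09 to 0.07 on day 28. Its lowest adjusted p by limma was 0.607. On day 1 it was lower in all 6 dose groups, which share the same 5 controls. Il6st differed by -0.04 to 0.21 on day 1 and by -0.14 to -0.02 on day 28, with limma's lowest adjusted p at 0.891. For these chains the 95% intervals of all 12 contrasts stayed between -0.51 and 0.63.

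Stat3 itself, the factor that the family activates by phosphorylation, differed by -0.05 to 0.23 on day 1 and by -0.17 to 0.08 on day 28 (lowest adjusted p 0.793 by limma). An mRNA level says nothing of its phosphorylation, which was not measured.

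Socs3, the feedback inhibitor, had a higher mean than the controls on day 1 in all 6 dose groups and passed the test in none. These 6 comparisons share the same 5 controls, whose mean (-0.52) was the lowest of the 14 groups, so their signs are not independent. The day 1 controls had levels of -0.40, -0.56, -0.65, -0.55 and -0.46. After 162 µg NRCWE-030 the levels were 0.38, -0.02, -0.10, -0.27 and -0.36, and after 54 µg they were -0.23, 0.02, -0.08, -0.24 and 0.28. Both groups lay wholly above the controls, the nearest lung at -0.36 against the highest control at -0.40.

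The Socs3 difference was 0.45 at 162 µg NRCWE-030 (SE 0.13, 95% interval 0.18 to 0.72, 1.36-fold, adjusted p = 0.0896 by limma). It was 0.47 at 54 µg (adjusted p = 0.169 by limma) and 0.27 at 18 µg (adjusted p = 0.687), where 1 of the 5 lungs overlapped the controls. The 162 µg difference was called under 1 of 13 alternatives, slide as a random block (0.47, adjusted p = 0.0369 by limma). With slide and with scan day as fixed blocks it was 0.56 and 0.48 (adjusted p = 0.144 and 0.313 by limma).

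After NRCWE-025 the Socs3 levels at 162 µg were -0.35, -0.33, -0.34, 0.53 and 0.14, at 54 µg -0.25, -0.28, -0.33, -0.50 and -0.32, and at 18 µg -0.46, -0.64, -0.34, -0.55 and -0.33. The differences were 0.45 (adjusted p = 0.144 by limma), 0.19 and 0.06, and the first was 0.28 with slide as a fixed block. Only the group of 162 µg lay wholly above the controls, with 3 of its lungs close to them. Within scan days the Socs3 difference at 162 µg was 0.93 and 0.28 for NRCWE-030 and 0.05, 0.32 and 0.99 for NRCWE-025. The pairings were those of Il6, and the signs were again fixed, since both groups of 162 µg lay wholly above the controls.

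Il4ra, the chain shared by the receptors for IL-4 and IL-13, signals through STAT6 rather than STAT3. It differed by 0.33 after 162 µg NRCWE-030 (SE 0.19, adjusted p = 0.533 by limma) and by 0.27 after 162 µg NRCWE-025 (adjusted p = 0.630) on day 1. The other differences lay between -0.02 and 0.35 on day 1 and between -0.17 and 0.19 on day 28.

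**Figure D3:**
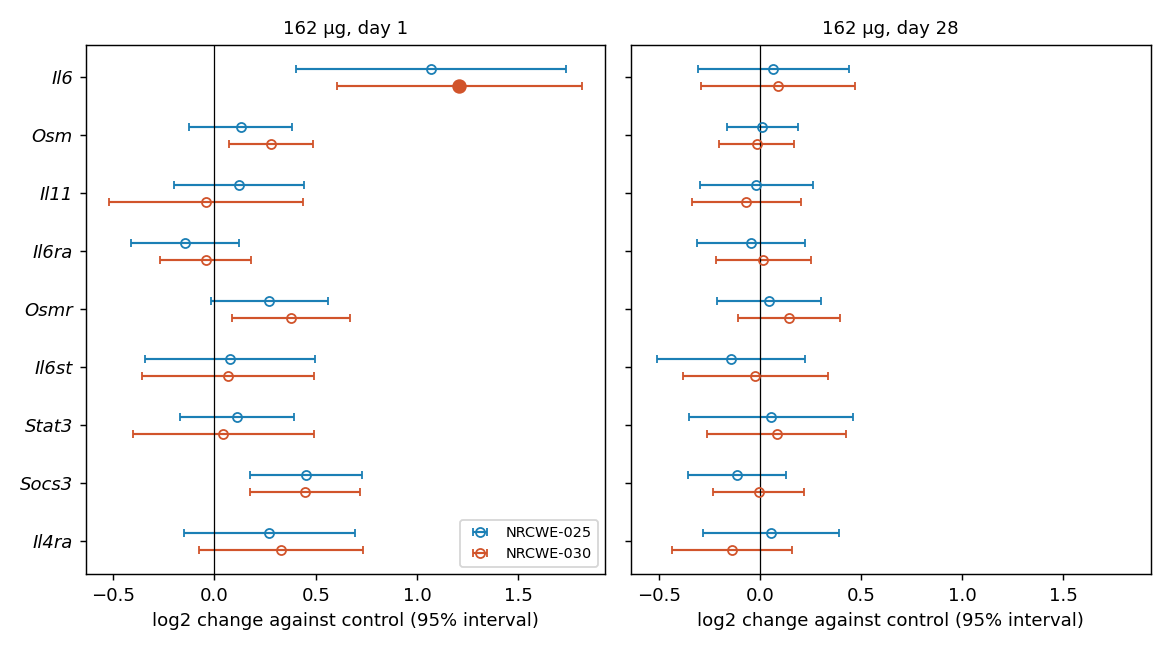
Log2 change against the control of the same day at 162 µg for the 9 measured members, with 95% intervals from limma, on day 1 (left) and day 28 (right). Il6 after NRCWE-030 on day 1, the filled point at 1.21, is the only change with an adjusted p under 0.05.

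Single lungs held the highest level of several members at once. After 162 µg NRCWE-025 on day 1, replicate 4 held the highest level of 7 of the 9 members (Il6, Il6ra, Osm, Osmr, Il11, Socs3 and Il4ra), while it held the highest level of 24.8% of all genes. After 162 µg NRCWE-030, replicate 1 held the highest level of 5 of the 9 (Il6, Osmr, Stat3, Socs3 and Il4ra), against 21.3% of all genes. Over the 9 members the median difference at 162 µg on day 1 was 0.28 for NRCWE-030 and 0.13 for NRCWE-025, against medians over all genes of 0.00454 and -0.000101. The number of members higher in mean than the controls was 7 of 9 and 8 of 9, where 51.3% and 50.0% of all genes were higher. At an unadjusted p under 0.05, limma passed 4 of the 9 members for NRCWE-030 (12.9% of all genes) and 2 of the 9 for NRCWE-025 (12.3%).

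On day 28 no member was called at any dose and no group of treated lungs separated from the controls in Il6 or Socs3. The Il6 differences lay between 0.06 and 0.21 with 95% limits from -0.32 to 0.57, and those of Socs3 between -0.14 and -0.01 with limits from -0.36 to 0.22. Of all genes 11 (0.059%), 5 (0.0268%) and 3 (0.0161%) were called at 18, 54 and 162 µg NRCWE-025, and 22 (0.118%), 10 (0.0536%) and 18 (0.0965%) at the same doses of NRCWE-030. The F-tests over the doses called 5 genes (0.0268%) and 19 genes (0.102%). At an unadjusted p under 0.05, 1 of the 9 members passed limma in 1 of the 6 contrasts of day 28, namely Il11 at 54 µg NRCWE-025 (difference 0.27, unadjusted p = 0.0425, adjusted p = 0.706 by limma), where 7.07% of all genes passed.

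**Figure D4:**
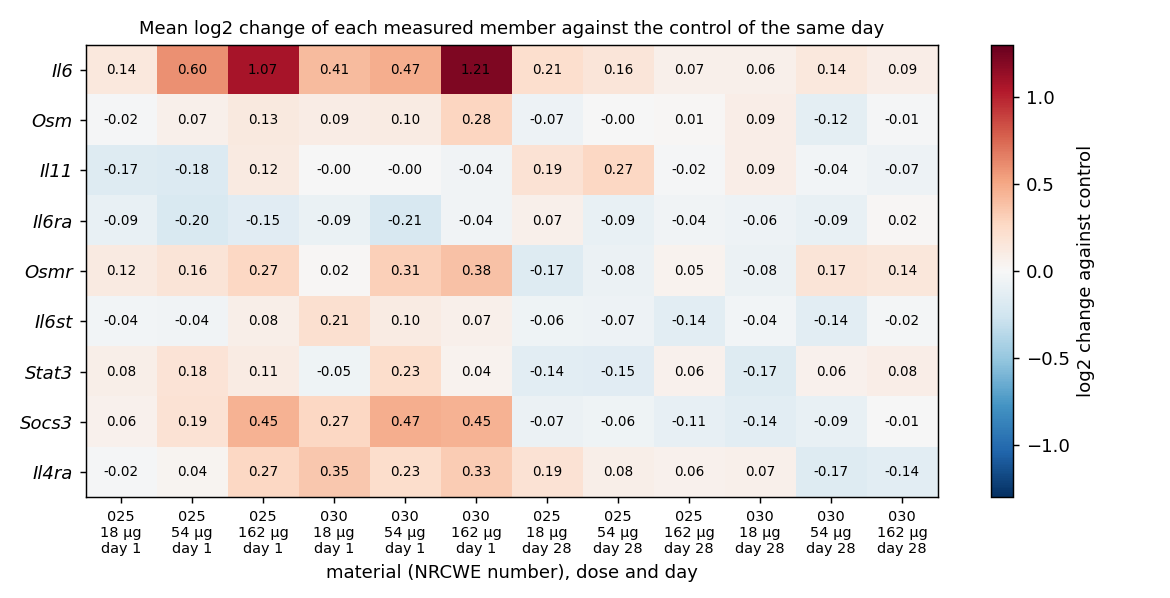
Log2 change of each measured member (rows) against the control of the same day for each material, dose and day (columns), with the value printed in each cell. The row of Il6 reaches 1.07 and 1.21 at 162 µg on day 1, the row of Socs3 reaches 0.45 to 0.47, and the day 28 columns lie between -0.17 and 0.27.

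The effect of 162 µg was also set against that on day 28 in a fit of all 14 groups. For Il6 the day 1 effect exceeded the day 28 effect by 1.12 for NRCWE-030 (95% interval 0.33 to 1.91, adjusted p = 0.375 by limma) and by 1.00 for NRCWE-025 (0.19 to 1.82, adjusted p = 0.343). For Socs3 the same differences were 0.45 (0.09 to 0.82, adjusted p = 0.463 by limma) and 0.56 (0.19 to 0.94, adjusted p = 0.217). The intervals lay above 0, but no member was called among the 37 genes (0.198%) of NRCWE-030 and the 11 (0.059%) of NRCWE-025. Between the vehicle groups of the 2 days no member was called among 7 genes (0.0375%), and Il6 differed by 0.10 and Socs3 by 0.18 in the day 28 controls.

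No member was called between the materials by the F-test over the 3 doses, which called 29 genes on day 1 (0.155%) and 45 on day 28 (0.241%). NRCWE-030 minus NRCWE-025 at 162 µg on day 1 was 0.14 for Il6 (95% interval -0.42 to 0.70, adjusted p = 0.961 by limma) and -0.00476 for Socs3 (-0.26 to 0.25). The interval for Il6 leaves room for a difference of either sign. At 54 µg on day 1 Socs3 was 0.29 higher after NRCWE-030 (0.03 to 0.54, adjusted p = 0.790 by limma).

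Over the 14 group means, neighbours in the order of levels differed by less than the larger of their SDs in all 13 steps for each of the 9 members. The highest means of Il6 were those of 162 µg NRCWE-030 on day 1 (-0.27 ± 0.74, SD, n = 5) and of 162 µg NRCWE-025 on day 1 (-0.41 ± 0.83), and the lowest that of the day 1 controls. The genes whose 14 group means followed Il6 most closely, among 13712 genes seen on at least 35 arrays, were Uhrf1 (r = 0.960), Pdss1 (0.959), Rrm1 (0.947), Trip13 (0.945) and Cdca7 (0.942). For Socs3 they were Tmem14c (0.969), Bax (0.954), Ubl4a (0.937), Efemp2 (0.932) and Ifitm2 (0.927), and Il6 with Socs3 gave 0.829. These are descriptions over 14 means of the same arrays.

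Other listed genes, among them genes known to respond to IL-6 or STAT3, were counted at 162 µg on day 1. Whether IL-6 drove their changes was not tested. Of 18 acute phase genes known to respond to IL-6, 10 were called higher after NRCWE-030, against 1.22% of all genes, and none lower. The median change was 1.29 against 0.00454 over all genes, and 16 of the 18 were higher in mean. After NRCWE-025 1 was called higher, where 0.209% of all genes were called. All 18 were higher in mean there, with a median of 1.01. Saa3, an acute phase apolipoprotein made in lung, rose by 7.31 (SE 0.82, adjusted p = 0.000105 by limma) after NRCWE-030, from -2.62 ± 0.48 to 4.70 ± 0.69 (SD, n = 5). Saa1 rose by 4.78, Orm2, an acid glycoprotein, by 3.76, and Saa2 by 3.57 (adjusted p from 0.000105 to 0.000707 by limma). Saa1 and Saa2 are near-identical copies whose probes may share target RNA. After NRCWE-025 Saa2 rose by 2.65 (adjusted p = 0.0424 by limma), a call lost under 7 of 12 alternatives, slide and scan day as fixed blocks among them, and in 14 of 20 omissions of 1 array, and Saa3 and Saa1 differed by 5.16 and 3.23 (adjusted p = 0.0543 and 0.0532). At 54 µg on day 1, 4 of the 18 were called higher after NRCWE-030 and none after NRCWE-025. Of all genes 0.0804% and 0% were called. All 18 and 17 of the 18 were higher in mean, with medians of 0.84 and 0.86. The mean of the liver markers, given below, was also higher in both groups of 54 µg than in the controls. On day 28 none of the 18 was called at 162 µg.

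Of 13 other ligands and receptors of the gp130 family none was called at 162 µg on day 1, with a median of -0.06 for NRCWE-030 and -0.04 for NRCWE-025, and 4 and 1 passed limma at an unadjusted p under 0.05, as did 12.9% and 12.3% of all genes. Of 22 genes of JAK-STAT signalling and its inhibitors none was called, with medians of 0.07 and 0.12, and 8 and 5 passed at that unadjusted p, against the same shares of all genes. Of 14 genes known to be induced through STAT3, 1 was called higher after NRCWE-030 and none after NRCWE-025, with medians of 0.14 and 0.21. Of all genes 1.22% were called higher after NRCWE-030, and 0.209% were called after NRCWE-025. At an unadjusted p under 0.05, 2 and 5 of the 14 passed limma, as did 12.9% and 12.3% of all genes. In mean 10 and 12 of the 14 were higher. The called gene was Cebpb, a factor of acute phase transcription, at 0.55 (SE 0.14, adjusted p = 0.0477 by limma). Its call was lost under 4 of 12 alternatives and in 17 of 20 omissions of 1 array. Of 10 genes of the IL-4 and IL-13 receptors, ligands and targets, 1 was called higher after NRCWE-030 and none after NRCWE-025. The shares of all genes called were again 1.22% and 0.209%. At an unadjusted p under 0.05, 3 and 2 of the 10 passed limma. In mean 7 of the 10 were higher for each material. The called gene was the chemokine Ccl17, at 1.38 (SE 0.31, adjusted p = 0.0261 by limma). The call of Ccl17 was lost under 3 of 12 alternatives, both fixed blocks included, and in 7 of 20 omissions of 1 array.

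**Figure D5:**
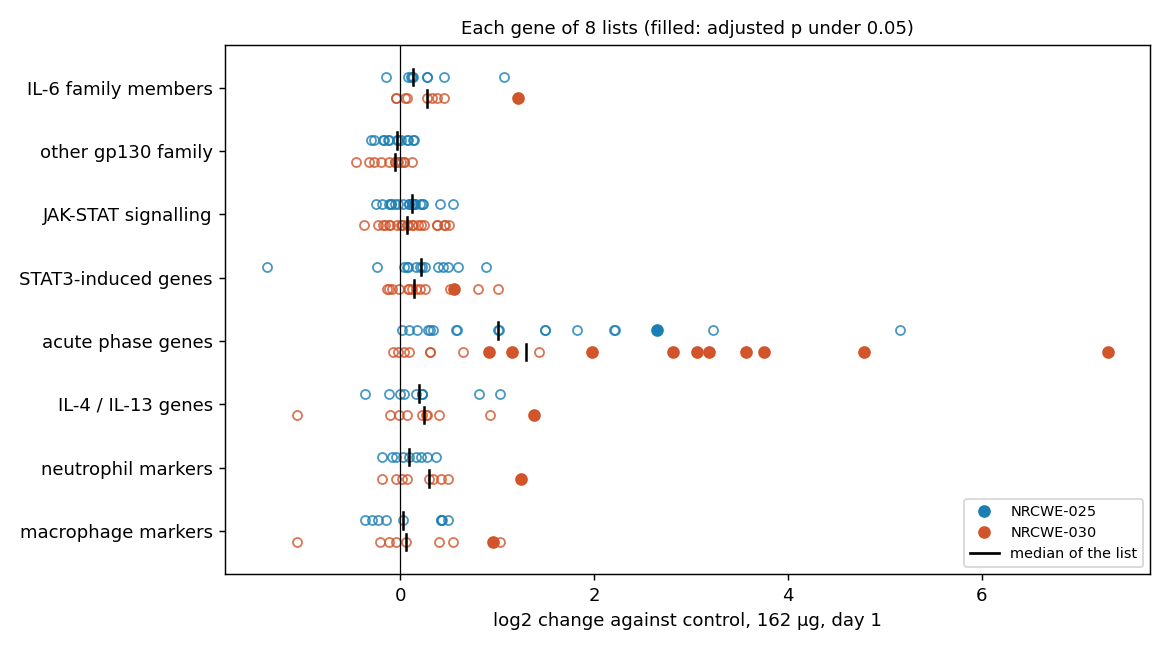
Log2 change against the control at 162 µg on day 1 for each gene of 8 lists and both materials (circles), filled where the adjusted p by limma is under 0.05, with the median of each list (black line). The acute phase genes have medians of 1.01 and 1.29, and 10 of 18 are filled for NRCWE-030, while the other lists hold at most 1 filled point.

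The markers of other cells are given beside these changes. Of 9 neutrophil markers 1 was called higher after 162 µg NRCWE-030 on day 1, and none after NRCWE-025. Of all genes 1.22% were called higher in the former comparison, and 0.209% were called in the latter. The called marker was the G-CSF receptor Csf3r, at 1.25 (adjusted p = 0.00262 by limma). With the scanner log ratio Csf3r differed by 0.30 (adjusted p = 0.795 by limma), and neither it nor Fcgr1, below, was called under either fixed block. The mean log2 ratio of the 9 per array ran from 1.66 to 2.15 in the controls, from 1.83 to 2.44 after NRCWE-030 and from 1.69 to 2.42 after NRCWE-025. Of 9 macrophage markers 1 was called higher after NRCWE-030, against the same 1.22% of all genes. The called marker was the Fc receptor Fcgr1, at 0.95 (adjusted p = 0.0177 by limma). The median difference of the 9 was 0.06, with 5 of 9 higher in mean, and Chil3, a chitinase-like protein of alternatively activated macrophages, differed by -1.06 (adjusted p = 0.205 by limma). Their mean log2 ratio per array ran from 2.34 to 2.73 in the controls, from 2.50 to 2.86 after NRCWE-030 and from 2.30 to 2.86 after NRCWE-025. No marker of alveolar, airway, endothelial, heart muscle, fat, B, T or liver cells was called at 162 µg on day 1. The 5 fat markers were all lower in mean than in the controls for both materials, with medians of -0.99 for NRCWE-025 and -0.59 for NRCWE-030, as were the 5 B cell markers, with medians of -0.26 and -0.18. Of the 6 heart muscle markers 0 were higher after NRCWE-025 (median -1.34) and 2 after NRCWE-030 (median -0.28). The 3 liver markers had a mean log2 ratio of 0.10 ± 0.05 (SD, n = 5) in the day 1 controls and a higher mean in every dose group of day 1. For NRCWE-025 it was 0.49 ± 0.35, 1.45 ± 0.91 and 0.66 ± 0.58 at 18, 54 and 162 µg. For NRCWE-030 it was 0.86 ± 1.21, 0.77 ± 0.78 and 0.29 ± 0.23 at the same doses. All 9 macrophage and 6 of the 9 neutrophil markers were well above background on all 69 arrays, and 2 neutrophil markers on fewer than 35. No fat or liver marker was well above background on all arrays. On fewer than 35 were 2 of the 5 fat, 2 of the 3 liver and 1 of the 5 B cell markers. The part of these cells in the changes of Il6, Socs3 and the acute phase genes was not tested.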

How the data were processed

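Cy5 and Cy3 intensities, local backgrounds and spot flags were read from the deposited scanner files, which the authors made with Agilent Feature Extraction 11.0.1.1. Per the file headers these also hold a log10 ratio, and the series matrix of the authors holds log2 ratios of the same arrays. Here, a local background that the scanner software had marked as an outlier was set to the median of the unmarked ones on its array. Normexp (offset 50) and loess within each array were then applied. On the backgrounds as deposited the normexp fit gave background means as low as -259 in Cy5 and -1153 in Cy3. With the marked ones replaced the lowest were -14.4 and -5.66. Of the spots that are not controls, 0.292% were left out by flags. Spots were reduced to probes and probes to RefSeq symbols by medians. Of 41174 probes 27479 (66.7%) had a symbol, giving 18749 genes, of which 93 with a missing value were left out. limma 3.58.1 in R 4.3.3 was fitted to each material and day (control and 3 doses) and to all 14 groups, with Benjamini-Hochberg adjustment over all genes. The design, with a moderated F-test and contrasts against the control, was tested on simulated data. The series matrix correlated with the values used here at 0.926 to 0.997 per array.

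Replicates are separate mice. Their numbers follow accession order and pair nothing. The 10 genes, the lists and the tests were chosen with earlier results of these data known. All members were named. Values per array were given for called members and for Il6 and Socs3, and for Osmr in addition, chosen after its values were seen. Of each other list up to 4 genes were named, those called in a dose comparison with the largest change at 162 µg NRCWE-030 on day 1. Probes, promoters and accessions were matched by RefSeq tables of GRCm38.p6, while the array design is of build mm9, so that probe coordinates are not given. Alternatives were other background corrections and ratios, Aquantile between arrays, the flags, the mean over probes, a filter on dim probes, slide or scan day as a block, an ordinary test, each array left out in turn, and a fit over probes, which was added after seeing the data.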

Additional observations from a re-analysis of the deposited data

Results flagged for a closer look

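Among 126 combinations of a member and a group, 6 held a lung whose distance to the nearest other exceeded Dixon's limit, where chance gives about 1 in 20. Il4ra stood at 2.03 in replicate 4 of 162 µg NRCWE-025 on day 1, with the next lung at 1.22. Il6 was at -2.06 in replicate 4 of 18 µg NRCWE-025 on day 1, below the next at -1.32. Il6ra was at -0.49 in replicate 3 of 54 µg NRCWE-030 on day 1. Il6st was at 0.48 in replicate 1 of the day 1 controls, against 1.32 for the next, and at 1.96 in replicate 3 of 162 µg NRCWE-030 on day 28. Osmr was at -0.31 in replicate 3 of 18 µg NRCWE-025 on day 28. Replicate 4 of 162 µg NRCWE-025 on day 1 also held the highest Il6 and Socs3 levels of its group.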

How the results depend on the processing

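Of 21 counts of members called, 19 kept their value of 0 under all 12 alternatives and with each array left out. As reported, these comparisons called at most 45 of the 18656 genes (0.241%), so that a count of 0 had little room to change. After 162 µg NRCWE-030 on day 1 the count of 1 fell to 0 with normexp on the backgrounds as deposited, no background correction, the series matrix values, the ordinary test, slide as a fixed block and scan day as a fixed block, and rose to 2 (Il6 and Socs3) with slide as a random block. It ranged from 0 to 1 with each array left out. The F-test over the doses of NRCWE-030 on day 1 called 1 member, Il6, with the scanner log ratio, in place of 0. The day 1 differences of Il6, Osm, Osmr and Socs3 run under the alternatives, 7 in all, kept their sign. The Il6 difference ranged from 1.09 to 3.98 over the alternatives and from 0.90 to 1.39 with 1 array left out, and its call was lost in 8 of 20 omissions (adjusted p by limma from 0.0535 to 0.0982): control replicates 2, 3, 4 and 5 and replicates 1, 2, 3 and 5 of 162 µg NRCWE-030. Leaving out a lung of a lower dose did not change this Il6 difference. Aquantile leaves log ratios as they are by construction.

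The number of genes called in the same comparison, 316 as reported, was 72 with slide and 50 with scan day as a fixed block, 494 with slide as a random block, 529 with the scanner log ratio, 196 with the ordinary test and from 151 to 468 with 1 array left out. For 162 µg NRCWE-025 on day 1 the 39 genes became 0 under either fixed block, 15 without background correction or from the series matrix, 2 with the scanner log ratio, 5 with the ordinary test and 171 with slide as a random block. For the dose effect of NRCWE-030 on day 1 the 178 became 109 with slide and 86 with scan day as a fixed block, 74 by the ordinary test and 459 when slide was a random block. Of the 18 acute phase genes, 7 to 11 were called higher after 162 µg NRCWE-030 on day 1 under the alternatives. The cause was not tested. Replicate numbers follow accession order and were not used as a block. The dim Il6 and Osm probes limit what these arrays show at control levels.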
